A study of Homo sapiens with 9 samples.

Results

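The genes described here are 33 genes of sterol synthesis, its control by SREBP2, and cholesterol handling, chosen by name as they stand in a fixed list and found on the array by gene symbol, current or older. Of the 33, 30 had a probe set naming a single gene and 29 were bright enough to be tested, out of 12239 genes tested in all. They fall into 4 groups by role: SREBP control (6 genes), the mevalonate and isoprenoid steps (8), the steps of squalene to cholesterol (11), and movement, storage, efflux and LXR signalling (8). Expression was measured on 9 arrays in cells labelled R-HepG2, an insulin-resistant form of the HepG2 hepatoma line. All cells were kept overnight in serum-free DMEM and then held for 4 h in biomineralized insulin (3 arrays), in insulin (3 arrays) or in fresh DMEM, called medium here (3 arrays). Both insulin preparations held 40 ug/ml of insulin, and no group received the mineral without insulin. Nothing in the labels says that replicates came from separate cultures. The p-values below therefore rest on a spread between arrays that may be technical. The cell line label reads HepG2 on the treated arrays and R-HepG2 on the medium arrays, while the protocols name R-HepG2 throughout.

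Cells make cholesterol from acetyl-CoA by way of mevalonate, the isoprenoid pyrophosphates and squalene, and the liver is a main site of this synthesis. SREBP2, the product of SREBF2, is a membrane-bound transcription factor of the genes for these enzymes. SCAP carries it out of the endoplasmic reticulum when sterols are low, INSIG proteins hold it there when sterols are high, and the proteases encoded by MBTPS1 and MBTPS2 then release its active part in the Golgi. LXR receptors are activated by oxysterols and raise the genes of cholesterol efflux.

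The deposited values are on a log2 scale, so a difference of 1 is a doubling, and array medians lay between 5.46 and 5.50. Arrays of a group correlated at 0.998 and arrays of different groups at 0.992 to 0.998. The spike-in control probe sets, which read the bacterial transcripts dap, lys, phe and thr, averaged 7.62 ± 0.16 in biomineralized insulin, 7.23 ± 0.02 in insulin and 7.22 ± 0.07 in medium (SD, n = 3 each). Biomineralized insulin exceeded medium by 0.40 (exact permutation test, two-sided p = 0.1) and insulin by 0.39 (exact p = 0.1), where 0.1 is the smallest p that 3 against 3 arrays allow. Every direction given below for biomineralized insulin is therefore relative to the median of all genes. Centring on the spike-ins instead moves that median by -0.40 against medium and -0.39 against insulin, and counts under that centring stand beside the others. In those counts the spread between spike-in means is shared by all genes of an array. There limma took its prior degrees of freedom as infinite (9.76 in the deposited scaling). The p-values under that centring are too small in the comparisons with biomineralized insulin. In insulin against medium they were larger for the sterol genes than in the deposited scaling, as for INSIG1 (limma, adjusted p = 0.3 against 0.011). Of the liver markers, ALB averaged 3.41 in biomineralized insulin, 3.49 in insulin and 3.28 in medium, and AFP 2.93 in biomineralized insulin, 2.87 in insulin and 3.00 in medium, all under the brightness limit of 4.74, so the hepatocyte label was not borne out by these defining markers. In all, 4 of 10 hepatocyte markers passed the limit, and the summed log2 level of the 10 was 42.5 to 43.7 in biomineralized insulin, 42.4 to 43.2 in insulin and 41.9 to 43.9 in medium. Of 5 lung epithelium markers 4 passed, with sums over the 5 of 27.6 to 28.1 in biomineralized insulin, 26.9 to 27.1 in insulin and 26.4 to 27.0 in medium, and of 4 fibroblast markers 3 passed, with sums of 23.8 to 24.0 in biomineralized insulin, 23.5 to 23.9 in insulin and 23.3 to 23.6 in medium. All 3 endothelium markers passed, with sums of 15.8 to 16.0 in biomineralized insulin, 15.8 to 16.0 in insulin and 15.4 to 16.0 in medium. Of 3 leukocyte markers 1 passed, with sums of 12.9 to 13.2, 13.1 to 13.2 and 13.0 to 13.2 in the same groups. Passing the limit therefore does not by itself name a cell type. The part of these markers and of the spike-in shift in the results below was not tested. In bulk RNA, fewer cells of a type and less RNA per cell cannot be told apart.

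Promoter windows are shown for 7 genes picked from the results. The genes are SREBF2 itself, some with the larger rises (INSIG1, HMGCS1, MSMO1, NSDHL) and some that fell (MBTPS2, NPC1). Each window is the 250 bases before the gene's start in RefSeq's GRCh38.p14 annotation, written in the direction of transcription. They lie at chr22:41832855-41833104 for SREBF2, chr7:155297628-155297877 for INSIG1, chr5:43313413-43313662 for HMGCS1 (the first of its 2 annotated starts), chr4:165327419-165327668 for MSMO1, chrX:152830813-152831062 for NSDHL, chrX:21839367-21839616 for MBTPS2 and chr18:23586507-23586756 for NPC1. HMGCS1 and NPC1 are on the minus strand and the other 5 on the plus strand. Capitals mark matches on either strand to the core CACNCCA of the sterol regulatory element, to which SREBPs bind, to the CCAAT box, which binds NF-Y, and to the GC box GGGCGG, which binds Sp1; NF-Y and Sp1 are known partners of SREBPs.
SREBF2: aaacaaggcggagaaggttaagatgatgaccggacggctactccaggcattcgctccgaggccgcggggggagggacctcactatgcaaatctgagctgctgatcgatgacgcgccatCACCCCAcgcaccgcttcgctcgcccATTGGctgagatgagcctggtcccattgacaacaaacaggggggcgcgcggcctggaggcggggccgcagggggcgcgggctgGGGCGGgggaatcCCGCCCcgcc
INSIG1: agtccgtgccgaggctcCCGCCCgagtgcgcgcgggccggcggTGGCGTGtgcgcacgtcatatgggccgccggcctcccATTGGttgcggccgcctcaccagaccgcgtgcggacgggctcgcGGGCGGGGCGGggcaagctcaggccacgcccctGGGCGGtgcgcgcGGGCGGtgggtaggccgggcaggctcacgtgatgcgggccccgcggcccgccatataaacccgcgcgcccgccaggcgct
HMGCS1: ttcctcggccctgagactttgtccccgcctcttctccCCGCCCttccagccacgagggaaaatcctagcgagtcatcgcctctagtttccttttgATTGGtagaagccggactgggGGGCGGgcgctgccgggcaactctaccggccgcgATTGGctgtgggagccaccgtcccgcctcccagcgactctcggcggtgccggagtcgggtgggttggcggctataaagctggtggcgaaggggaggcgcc
MSMO1: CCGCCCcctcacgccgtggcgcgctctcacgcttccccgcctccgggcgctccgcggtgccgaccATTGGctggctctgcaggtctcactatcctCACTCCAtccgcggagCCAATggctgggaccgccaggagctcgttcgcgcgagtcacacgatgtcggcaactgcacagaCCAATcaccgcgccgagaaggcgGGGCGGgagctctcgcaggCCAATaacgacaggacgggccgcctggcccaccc
NSDHL: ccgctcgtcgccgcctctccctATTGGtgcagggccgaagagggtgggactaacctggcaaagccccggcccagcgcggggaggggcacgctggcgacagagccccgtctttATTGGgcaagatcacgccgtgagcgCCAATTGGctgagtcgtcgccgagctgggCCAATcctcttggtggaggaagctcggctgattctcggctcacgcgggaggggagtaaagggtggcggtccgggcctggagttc
MBTPS2: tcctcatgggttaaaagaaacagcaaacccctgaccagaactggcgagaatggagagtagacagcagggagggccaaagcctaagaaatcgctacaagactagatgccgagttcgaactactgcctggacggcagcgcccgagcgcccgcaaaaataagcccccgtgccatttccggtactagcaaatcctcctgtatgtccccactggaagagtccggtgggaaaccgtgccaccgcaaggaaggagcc
NPC1: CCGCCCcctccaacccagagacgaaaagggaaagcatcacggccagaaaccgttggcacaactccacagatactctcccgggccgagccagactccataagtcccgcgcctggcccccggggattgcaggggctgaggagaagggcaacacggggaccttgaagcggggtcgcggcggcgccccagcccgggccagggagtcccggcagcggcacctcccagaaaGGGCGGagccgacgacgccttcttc
Among these windows the core CACNCCA was present in SREBF2, INSIG1 and MSMO1, the CCAAT box in these genes and in HMGCS1 and NSDHL, and the MBTPS2 window held none of the 3 motifs. NSDHL held 5 CCAAT boxes and MSMO1 4. The 7 windows do not stand for all genes of either direction. The window of SOAT1, which also fell, held all 3 motifs, as did that of TM7SF2, which was not called. DHCR7, which rose, had the core CACNCCA in neither of its windows. A matching window was found for 29 of the 33 genes, 38 windows in all; ACAT2, SQLE, FDFT1 and ABCG1 had none in the table. CACNCCA stood in 12 of the 38 windows (31.6%), against 14.7% of all 35116 promoter windows of this length. The CCAAT box stood in 22 (57.9%), against 32.0% of all windows, and GGGCGG in 33 (86.8%), against 42.6%. Several windows belong to 1 gene, and the motifs were chosen with the windows in view, so these shares are a description. A match is not a measured binding site.

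In biomineralized insulin against medium, 18 of the 29 tested sterol genes rose and 3 fell at an adjusted p under 0.05 (limma, Benjamini-Hochberg over all 12239 genes), or 62.1% and 10.3%, against 25.7% higher and 25.2% lower among all genes; with spike-in centring the counts were 5 and 15, against 2.23% higher and 74.5% lower among all genes. Of the 17 synthesis enzymes tested 11 rose and none fell (4 and 8 with spike-in centring), and their largest differences were in SQLE, MSMO1, HMGCS1, IDI1, NSDHL and DHCR7. In biomineralized insulin against insulin 9 rose and 4 fell (31.0% and 13.8%), against 21.1% higher and 23.3% lower among all genes, and with spike-in centring the counts were 3 and 20, against 1.35% and 77.2%. In insulin against medium 5 rose and 1 fell (17.2% and 3.45%), against 1.25% higher and 1.2% lower among all genes. Spike-in centring left 0 and 0, against 0.00817% higher and 0.049% lower among all genes. The median log2 difference of the 29 genes was 0.18, 0.08 and 0.08 in these 3 comparisons, against 0.02, 0.02 and 0.01 over all genes. With spike-in centring it was -0.23, -0.30 and 0.06. The pairs of comparisons share arrays, so their counts are not independent of each other.

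**Figure D1:**
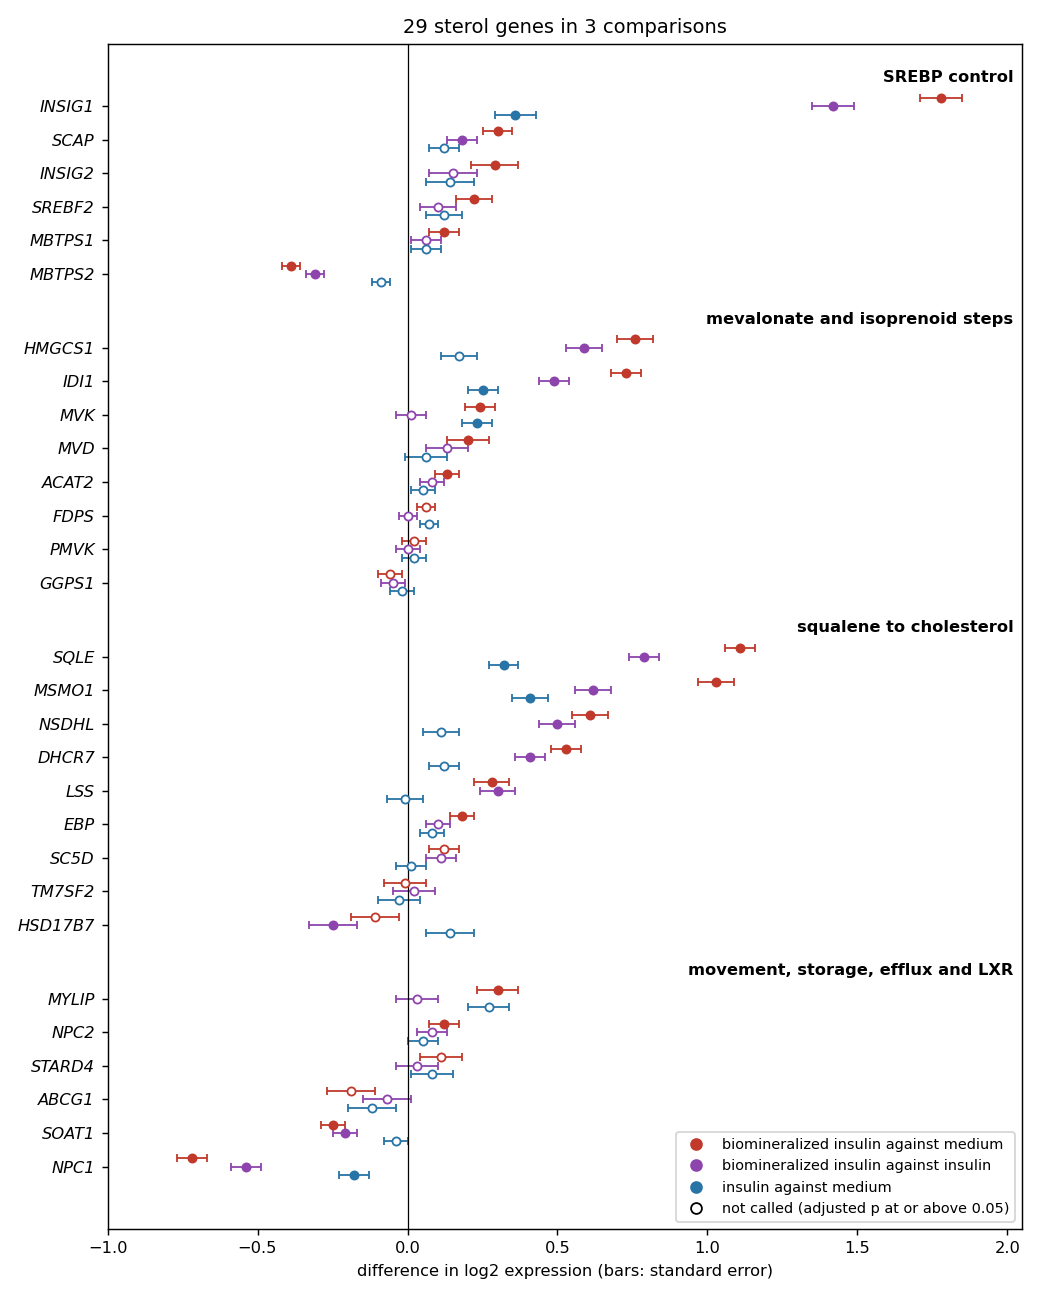
Log2 difference of each tested sterol gene (rows, grouped by role) with its standard error, for biomineralized insulin against medium, biomineralized insulin against insulin and insulin against medium; open points did not pass an adjusted p of 0.05. INSIG1 has the largest difference, 1.78 against medium and 1.42 against insulin, and NPC1 the lowest, -0.72 and -0.54; values are relative to the median of all genes, and with spike-in centring 15 of the 29 genes were called lower against medium.

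Among the 6 SREBP control genes, 5 rose and 1 fell in biomineralized insulin against medium (83.3% and 16.7%, against 25.7% and 25.2% of all genes). Against insulin 2 rose and 1 fell (33.3% and 16.7%, against 21.1% and 23.3%). In insulin against medium 1 rose (16.7%, against 1.25%). With spike-in centring the counts were 1 (INSIG1) and 2 in the first comparison, against 2.23% and 74.5% of all genes. Against insulin they were 1 and 4, against 1.35% and 77.2%, and in insulin against medium 0 and 0. INSIG1, which retains the SCAP-SREBP complex in the endoplasmic reticulum and is itself a classical SREBP target, read 10.78, 10.91 and 10.79 in biomineralized insulin, 9.39, 9.28 and 9.54 in insulin, and 9.19, 9.02 and 8.93 in medium. The biomineralized insulin arrays stood far above the rest, the insulin arrays lay above the medium arrays, and no groups overlapped. The means were 10.83 ± 0.07 in biomineralized insulin, 9.40 ± 0.13 in insulin and 9.05 ± 0.13 in medium (SD, n = 3 each). INSIG1 was 3.43-fold higher in biomineralized insulin than in medium (log2 1.78 ± 0.07 SE, adjusted p = 2.6e-12) and 2.68-fold higher than in insulin (1.42 ± 0.07, adjusted p = 6e-11), and 1.28-fold higher in insulin than in medium (0.36 ± 0.07, adjusted p = 0.011). All 3 of its bright probe sets rose, by 0.67 to 1.78 against medium and by 0.44 to 1.42 against insulin. With spike-in centring its differences were 1.38 and 1.04. The smaller insulin difference missed the threshold without insulin replicate 3 (adjusted p = 0.081) or without medium replicate 2 (adjusted p = 0.076), over a range of 0.0024 to 0.3 among the alternatives.

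SCAP, the escort protein, read 8.89, 8.94 and 8.94 in biomineralized insulin, 8.73, 8.75 and 8.77 in insulin, and 8.56, 8.59 and 8.73 in medium. Biomineralized insulin was above both other groups, and 1 medium array reached the insulin level. The difference was 0.30 ± 0.05 against medium (adjusted p = 6.9e-05) and 0.18 ± 0.05 against insulin (adjusted p = 0.0071). SREBF2 itself read 7.37, 7.32 and 7.33 in biomineralized insulin, 7.20, 7.31 and 7.21 in insulin, and 7.18, 7.13 and 7.05 in medium. It was highest in biomineralized insulin by a small margin, 0.22 ± 0.06 against medium (adjusted p = 0.0047), and its 0.10 against insulin did not pass (adjusted p = 0.19). Its bright probe sets ranged over 0.01 to 0.22 against medium. INSIG2, the second retention protein, differed by 0.29 ± 0.08 against medium (adjusted p = 0.0062), with probe sets at 0.29 to 0.59, and by 0.15 against insulin (adjusted p = 0.14). The other bright probe sets of INSIG2 gave 0.45 and 0.24 against insulin. Insulin replicate 3 read 9.09 against 8.73 and 8.72 on the other insulin arrays, and without it the difference was 0.27 (adjusted p = 0.0014). The INSIG2 difference against insulin was thus not called in the main fit. Whether it passed depended on this array and on the probe set, over alternatives of 0.00094 to 0.44. SREBF2, SCAP and INSIG2 were each below 0 against both insulin and medium with spike-in centring, by 0.11 to 0.29 on the log2 scale.

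The proteases gave differences of opposite sign against medium, and both lay below 0 with spike-in centring, at -0.80 for MBTPS2 and -0.28 for MBTPS1. MBTPS2, the intramembrane protease of the final cut, read 11.34, 11.45 and 11.38 in biomineralized insulin, 11.70, 11.69 and 11.70 in insulin, and 11.75, 11.79 and 11.81 in medium. The biomineralized insulin arrays were the lowest, and no groups overlapped. MBTPS2 fell by 0.39 ± 0.03 against medium (adjusted p = 2.7e-08) and by 0.31 ± 0.03 against insulin (adjusted p = 6.5e-07), and a second, dimmer probe set differed by -0.09 and 0.01. MBTPS1, the protease of the first cut, was 0.12 ± 0.05 higher against medium with adjusted p = 0.0496, which most alternatives took above 0.05 (0.00066 to 0.2). Its second probe set above the limit gave 0.34.

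**Figure D2:**
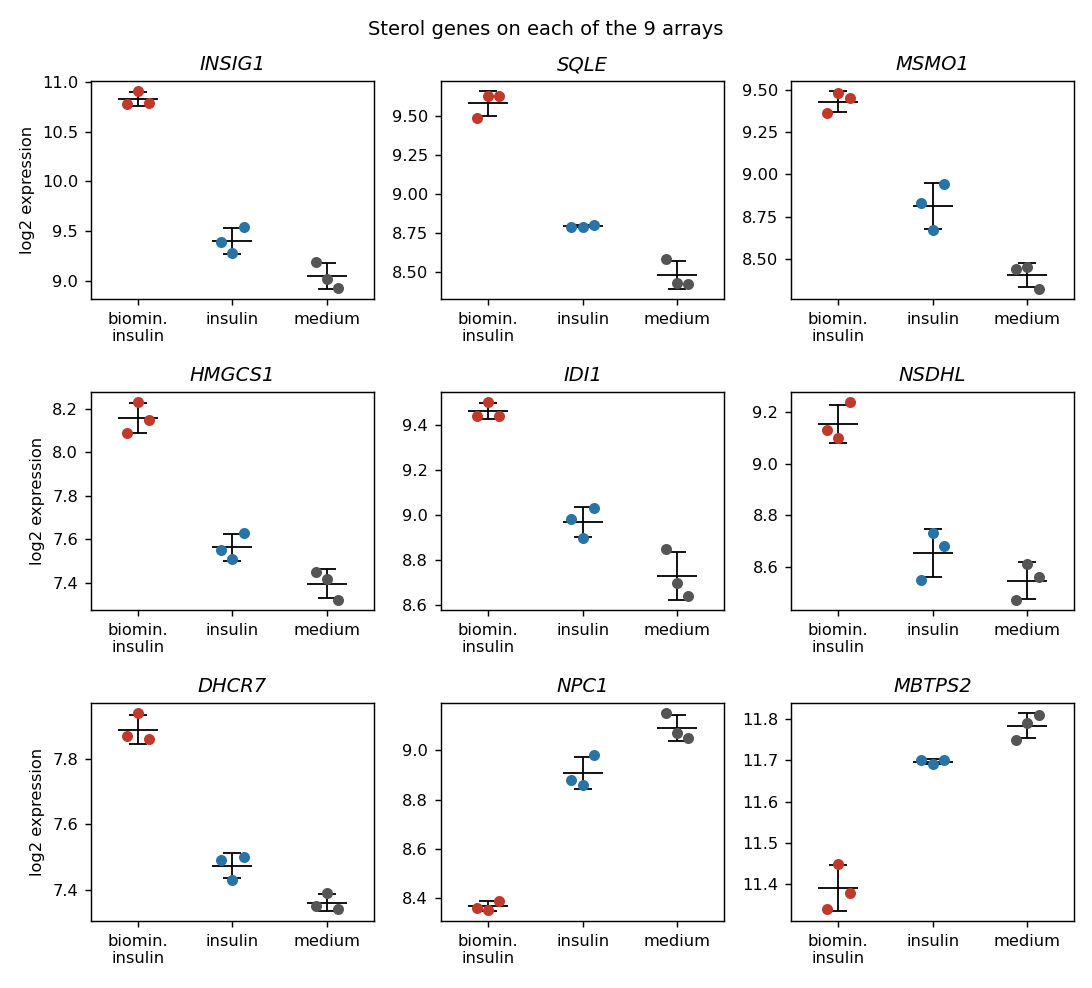
Log2 level on every array (points) with mean ± SD (bars, n = 3) for 9 of the sterol genes called in at least 2 comparisons, with biomineralized insulin left, insulin in the middle and medium right; y axes differ between panels. In INSIG1, SQLE, MSMO1, HMGCS1, IDI1 and DHCR7 the 3 groups did not overlap and biomineralized insulin was highest. In NPC1 and MBTPS2 it was lowest, also without overlap. With spike-in centring biomineralized insulin stayed above both other groups in INSIG1, SQLE and HMGCS1, and below both in NPC1 and MBTPS2. The biomineralized insulin arrays of MSMO1 (9.04 to 9.24) then overlapped the insulin arrays (8.82 to 9.05). Those of IDI1 (9.06 to 9.30) did so too (insulin 9.05 to 9.14). Those of NSDHL and DHCR7 overlapped both other groups.

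Of the 8 mevalonate and isoprenoid genes, 5 rose in biomineralized insulin against medium, 2 against insulin, and 2 in insulin against medium, and none fell; with spike-in centring the counts in the first comparison were 2 higher and 4 lower, and against insulin 0 and 6. HMGCS1, the cytosolic HMG-CoA synthase, read 8.09, 8.23 and 8.15 in biomineralized insulin, 7.55, 7.51 and 7.63 in insulin, and 7.45, 7.42 and 7.32 in medium. The groups were fully apart. It was 1.69-fold higher than medium (0.76 ± 0.06, adjusted p = 1.4e-08) and 1.51-fold higher than insulin (0.59 ± 0.06, adjusted p = 3.5e-07), and the 0.17 of insulin over medium did not pass (adjusted p = 0.16). IDI1, which isomerizes isopentenyl pyrophosphate, read 9.44, 9.50 and 9.44 in biomineralized insulin, 8.98, 8.90 and 9.03 in insulin, and 8.85, 8.70 and 8.64 in medium. Here too the groups were ordered without overlap. IDI1 was 1.66-fold higher than medium (0.73 ± 0.05, adjusted p = 8.1e-09), 1.4-fold higher than insulin (0.49 ± 0.05, adjusted p = 1.3e-06), and 0.25 ± 0.05 higher in insulin than in medium (adjusted p = 0.025). That last call was lost without insulin replicate 1 (adjusted p = 0.08) or 3 (adjusted p = 0.15), or without medium replicate 2 (adjusted p = 0.11) or 3 (adjusted p = 0.073), over alternatives of 0.0067 to 1.0. The second bright probe set of IDI1 gave 0.59 against medium and 0.51 against insulin but 0.08 in insulin against medium (adjusted p = 0.5). That of HMGCS1 gave 0.69, 0.73 and -0.04 in the same comparisons. With spike-in centring HMGCS1 differed by 0.35 against medium and 0.21 against insulin, and IDI1 by 0.33 and 0.10; neither passed against insulin.

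MVK, mevalonate kinase, read 7.10, 7.13 and 7.19 in biomineralized insulin, 7.10, 7.16 and 7.12 in insulin, and 6.89, 6.92 and 6.90 in medium. On this probe set both insulin groups covered about the same range, above all medium arrays. The difference was 0.24 ± 0.05 against medium in biomineralized insulin (adjusted p = 0.0016) and 0.23 ± 0.05 in insulin (adjusted p = 0.039), and 0.01 between the preparations (adjusted p = 0.89). A second, dimmer probe set gave 0.27 in biomineralized insulin and 0.08 in insulin against medium (adjusted p = 0.76 for insulin), and 0.18 between the preparations. The insulin call was lost when any of the 6 insulin and medium arrays was left out (alternatives 0.029 to 1.0). ACAT2, the cytosolic thiolase of the opening step, differed by 0.13 ± 0.04 against medium (adjusted p = 0.0083) and by 0.08 against insulin (adjusted p = 0.09). MVD, mevalonate diphosphate decarboxylase, was 0.20 ± 0.07 higher than in medium (adjusted p = 0.025), which did not pass without biomineralized insulin replicate 1 (adjusted p = 0.097) or 2 (adjusted p = 0.06), or without medium replicate 1 (adjusted p = 0.15). MVK, ACAT2 and MVD were below 0 against medium with spike-in centring, at -0.16, -0.27 and -0.21. PMVK, FDPS and GGPS1, for phosphomevalonate kinase and the farnesyl and geranylgeranyl pyrophosphate synthases, differed by 0.02, 0.06 and -0.06 against medium and did not pass; the other bright probe sets of GGPS1 lay at -0.36 and -0.30.

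Of the 9 tested genes of the squalene to cholesterol steps, 6 rose in biomineralized insulin against medium (66.7%, against 25.7% of all genes) and none fell. Against insulin 5 rose and 1 fell (55.6% and 11.1%, against 21.1% and 23.3% of all genes). In insulin against medium 2 rose (22.2%, against 1.25% of all genes). With spike-in centring 2 rose and 4 fell in each of the first 2 comparisons. Among all genes 2.23% were then higher and 74.5% lower against medium, and 1.35% and 77.2% against insulin. SQLE, squalene epoxidase and a rate-limiting enzyme of this part, read 9.49, 9.63 and 9.63 in biomineralized insulin, 8.79, 8.79 and 8.80 in insulin, and 8.58, 8.43 and 8.42 in medium. The 3 groups were far apart for the spread within them, and insulin lay nearer to medium. SQLE was 2.16-fold higher than medium (1.11 ± 0.05, adjusted p = 4.9e-11) and 1.73-fold higher than insulin (0.79 ± 0.05, adjusted p = 3.9e-09), and 1.24-fold higher in insulin than in medium (0.32 ± 0.05, adjusted p = 0.0053). The SQLE insulin call missed the threshold without the intensity trend (adjusted p = 0.06) and with only _at probe sets (adjusted p = 0.17). It was also lost with the most variable probe set and with spike-in centring (adjusted p = 0.81), over alternatives of 0.0018 to 0.81. It passed when any of the 6 insulin and medium arrays was left out. The bright probe sets of SQLE gave 0.88 to 1.30 in biomineralized insulin against medium. MSMO1, the sterol C4-methyl oxidase, read 9.36, 9.48 and 9.45 in biomineralized insulin, 8.83, 8.67 and 8.94 in insulin, and 8.44, 8.45 and 8.32 in medium. It showed the same order without overlap. MSMO1 was 2.04-fold higher than medium (1.03 ± 0.06, adjusted p = 7.9e-10), 1.53-fold higher than insulin (0.62 ± 0.06, adjusted p = 4.6e-07), and 1.33-fold higher in insulin than in medium (0.41 ± 0.06, adjusted p = 0.0031). The insulin difference rested on probe sets of the kinds marked _x_at and _s_at, which can match related transcripts, and the bright probe set of another kind gave 0.09 (adjusted p = 0.73, alternatives 0.00094 to 0.73). With spike-in centring SQLE differed by 0.71 against medium and 0.41 against insulin, and MSMO1 by 0.62 and 0.23.

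NSDHL, a sterol C4-decarboxylating dehydrogenase that acts after MSMO1, read 9.13, 9.10 and 9.24 in biomineralized insulin, 8.55, 8.73 and 8.68 in insulin, and 8.47, 8.61 and 8.56 in medium. Its insulin and medium arrays overlapped, and biomineralized insulin was above both, by 0.61 ± 0.06 against medium (1.53-fold, adjusted p = 1.4e-07) and 0.50 ± 0.06 against insulin (adjusted p = 1.7e-06). DHCR7, the reductase of a final step, read 7.87, 7.94 and 7.86 in biomineralized insulin, 7.49, 7.43 and 7.50 in insulin, and 7.35, 7.39 and 7.34 in medium. It was 1.44-fold higher than medium (0.53 ± 0.05, adjusted p = 2.9e-07) and 0.41 ± 0.05 higher than insulin on the log2 scale (adjusted p = 6.1e-06), and 0.12 in insulin over medium did not pass (adjusted p = 0.29). LSS, lanosterol synthase, read 7.30, 7.34 and 7.25 in biomineralized insulin, 7.06, 6.98 and 6.97 in insulin, and 7.07, 6.97 and 7.01 in medium. Insulin and medium coincided for LSS, and biomineralized insulin was higher by 0.28 ± 0.06 against medium (adjusted p = 0.00054) and 0.30 ± 0.06 against insulin (adjusted p = 0.00044). With spike-in centring NSDHL and DHCR7 kept differences of 0.21 and 0.12 against medium that did not pass, and LSS lay at -0.12.

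EBP, the sterol isomerase, was 0.18 ± 0.04 higher than in medium (adjusted p = 0.0016), or -0.23 with spike-in centring, and 0.10 above insulin (adjusted p = 0.063). SC5D, the sterol C5-desaturase, differed by 0.12 against medium (adjusted p = 0.0527), with bright probe sets at 0.12 to 0.33. TM7SF2, a sterol C14 reductase, differed by -0.01 against medium (adjusted p = 0.94). HSD17B7, a sterol 3-ketoreductase, read 5.76, 5.72 and 5.69 in biomineralized insulin, against 5.95, 5.99 and 5.97 in insulin. Those groups did not overlap, and HSD17B7 fell by 0.25 ± 0.08 against insulin (adjusted p = 0.013), while its -0.11 against medium did not pass (adjusted p = 0.24). It rests on 1 probe set of a kind that can read related transcripts. CYP51A1 was read only by probe sets that also name LRRD1 and has no value here, and FDFT1 had no probe set in the annotation used here.

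**Figure D3:**
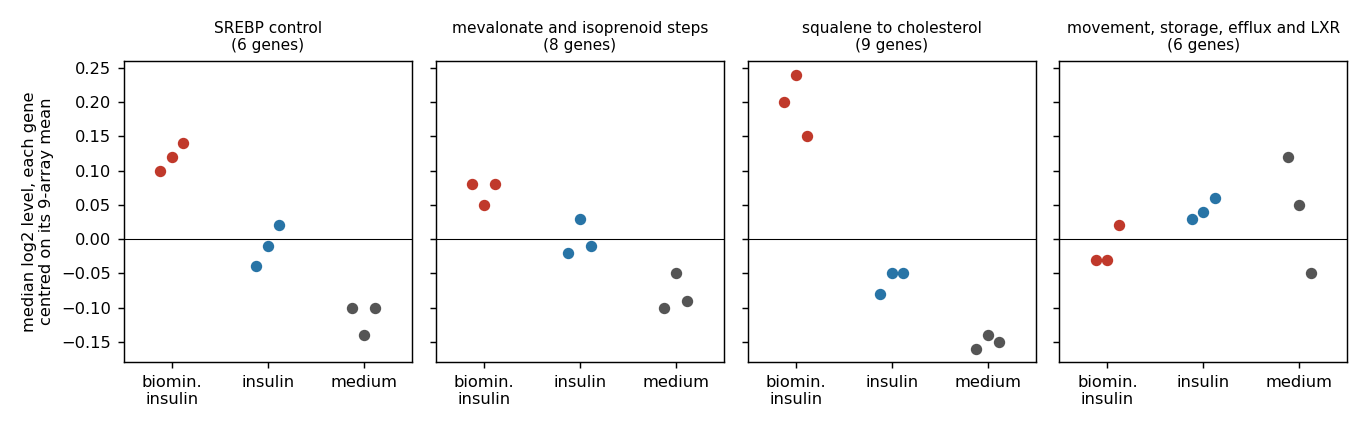
Median over the tested genes of each role group of the log2 level, each gene centred on its mean of the 9 arrays, per array (points), with biomineralized insulin left, insulin in the middle and medium right. The squalene to cholesterol genes lie at 0.15 to 0.24 in biomineralized insulin, -0.08 to -0.05 in insulin and -0.16 to -0.14 in medium, relative to the median of all genes, a height that spike-in centring lowers by 0.40 against medium.

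The genes of movement, storage, efflux and LXR signalling gave differences in both directions. Of the 6 tested genes of this group, 2 rose and 2 fell in biomineralized insulin against medium (33.3% each). These shares are near the 25.7% higher and 25.2% lower among all genes. Against insulin 2 fell (33.3%, against 23.3% of all genes). In insulin against medium 1 fell (16.7%, against 1.2% of all genes). With spike-in centring 5 fell against medium and 6 against insulin, where 74.5% and 77.2% of all genes were lower. None was called in insulin against medium under that centring. The group's median difference against medium was -0.04, against 0.25 for SREBP control, 0.17 for the mevalonate steps and 0.28 for the squalene to cholesterol steps. With spike-in centring these medians were all below 0, at -0.44, -0.15, -0.24 and -0.12 in the same order. The per-array medians overlapped between groups here: -0.03 to 0.02 in biomineralized insulin, 0.03 to 0.06 in insulin and -0.05 to 0.12 in medium. In SREBP control, the mevalonate steps and the squalene steps they did not overlap in the deposited scaling. The mevalonate steps lay at 0.05 to 0.08 in biomineralized insulin, -0.02 to 0.03 in insulin and -0.10 to -0.05 in medium. SREBP control lay at 0.10 to 0.14 in biomineralized insulin, -0.04 to 0.02 in insulin and -0.14 to -0.10 in medium.

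NPC1, which exports cholesterol out of lysosomes, had the largest fall among the tested genes on the probe set used for each gene. It read 8.36, 8.35 and 8.39 in biomineralized insulin, 8.88, 8.86 and 8.98 in insulin, and 9.15, 9.07 and 9.05 in medium. The order was the reverse of that of SQLE, with no overlap. NPC1 was 1.65-fold lower than medium (-0.72 ± 0.05, adjusted p = 2.1e-09) and 1.45-fold lower than insulin (-0.54 ± 0.05, adjusted p = 9.7e-08). A second, dimmer probe set gave -0.14 and -0.02. The -0.18 ± 0.05 of insulin against medium passed at adjusted p = 0.0483 and was lost when any of the 6 insulin and medium arrays was left out (alternatives 0.032 to 1.0). NPC2, its soluble partner, was 0.12 ± 0.05 higher in biomineralized insulin than in medium with adjusted p = 0.0482, its arrays overlapped, and most alternatives took it above 0.05 (0.00065 to 0.29).

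SOAT1, which esterifies cholesterol for storage, read 9.86, 10.00 and 9.97 in biomineralized insulin, 10.14, 10.16 and 10.16 in insulin, and 10.25, 10.21 and 10.11 in medium. Biomineralized insulin was below both, with a difference of -0.25 ± 0.04 against medium (adjusted p = 0.00017) and -0.21 ± 0.04 against insulin (adjusted p = 0.00089). Its other bright probe sets differed by 0.03 and by about 0 against medium, and the mean of all its probe sets by -0.07 (adjusted p = 0.21). STARD4, a sterol carrier, differed by 0.11 against medium (adjusted p = 0.18). In insulin against medium its probe sets ran over 0.08 to 0.42, and the most variable of them passed (adjusted p = 0.0487).

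MYLIP, an LXR target that marks lipoprotein receptors for degradation, read 6.51, 6.62 and 6.65 in biomineralized insulin, 6.46, 6.55 and 6.68 in insulin, and 6.38, 6.30 and 6.21 in medium. Both insulin groups overlapped each other and lay above medium. The difference against medium was 0.30 ± 0.07 in biomineralized insulin (adjusted p = 0.0028; -0.11 with spike-in centring) and 0.27 in insulin, where it did not pass (adjusted p = 0.066). ABCG1, a cholesterol efflux transporter, differed by -0.19 against medium on its brightest probe set (adjusted p = 0.059). Its other probe sets that passed the limit gave larger differences. One of them read 4.02, 4.02 and 4.23 in biomineralized insulin, 5.02, 4.98 and 5.20 in insulin, and 5.46, 5.51 and 5.17 in medium. The most variable one read 4.03, 3.87 and 4.47 in biomineralized insulin, 5.22, 4.92 and 5.49 in insulin, and 5.61, 5.52 and 5.45 in medium. In both, biomineralized insulin was below every other array. Their biomineralized insulin levels are under the brightness limit of 4.74, and they passed the filter through the other groups, so their differences are given only as bounds against that limit, with no test. The most variable one was at least 1.73-fold lower than medium and at least 1.39-fold lower than insulin, and the other at least 1.56-fold and 1.26-fold lower. The ABCG1 result therefore depends on the probe set. ABCA1, the transporter that loads cholesterol on to apolipoprotein A-I, was under that limit on all 3 probe sets, which averaged 2.85 to 3.46 over the groups, and was not tested. NR1H2, an LXR receptor, had no probe set in the annotation used here.

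**Figure D4:**
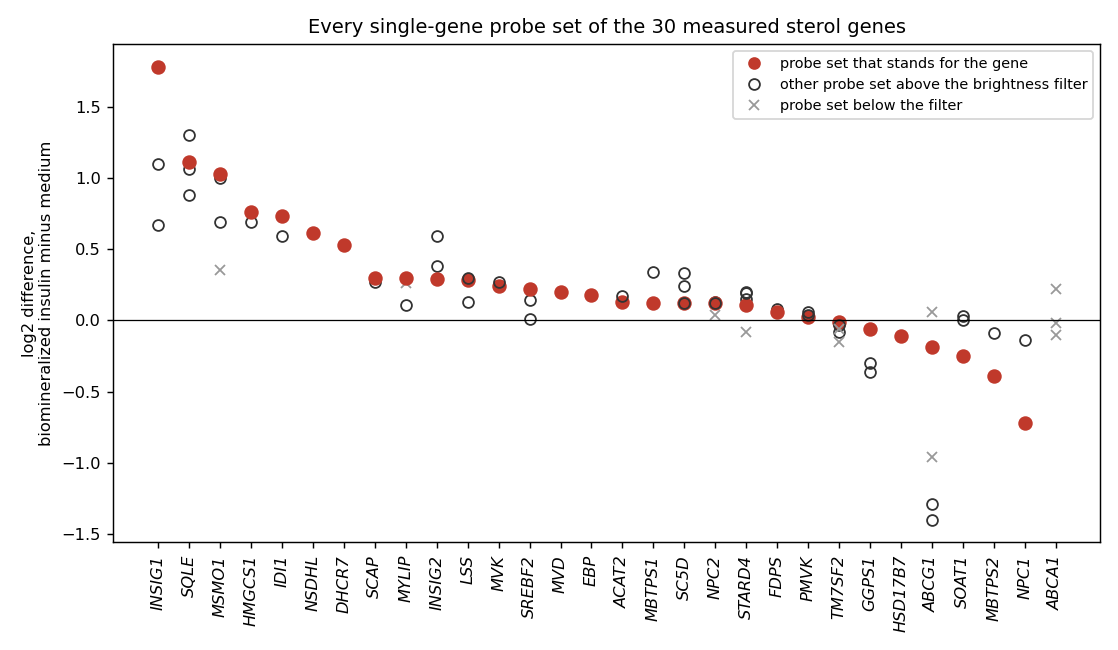
Log2 difference of biomineralized insulin against medium for every single-gene probe set of the 30 sterol genes that have one; filled points stand for the gene, open points are other probe sets above the brightness limit and crosses lie under it. Above the limit INSIG1 spans 0.67 to 1.78, SQLE 0.88 to 1.30 and MSMO1 0.69 to 1.03, all above the 0.40 by which spike-in centring lowers them, and NPC1 lies at -0.72 and -0.14.

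Related genes outside the 33 were counted by list in biomineralized insulin against medium. None of these lists had a gene called in insulin against medium, which is near the 1.25% higher and 1.2% lower among all genes. The differences are log2 values relative to the median of all genes. The shares among all genes are the 25.7% higher and 25.2% lower given above, and 2.23% and 74.5% with spike-in centring. Of 8 tested partners of sterol sensing and sterol-regulated degradation (11 listed), 5 rose and 2 fell, or 1 and 4 with spike-in centring. VCP, the segregase that draws ubiquitinated proteins from the membrane, was 1.04 higher (adjusted p = 6.7e-12), with bright probe sets at 0.81 to 1.04. SREBF1, the gene of the lipogenic SREBP1, was -0.31 (adjusted p = 2.6e-05), with probe sets at -0.31 to -0.02, and ERLIN1 was -0.21 (adjusted p = 0.00014), with probe sets at -0.21 to -0.14. Of 11 tested genes of the isoprenoid branches (12 listed), 5 rose and 3 fell, or 0 and 8 with spike-in centring. PGGT1B, a subunit of a protein prenylation enzyme, was -0.64 (adjusted p = 6.6e-09) and its second probe set -0.05. NUS1, of dolichol synthesis, was 0.55 (adjusted p = 7e-07), with probe sets at 0.44 to 0.57. Of 12 other tested genes of movement and storage (15 listed), 4 rose and 2 fell, or 0 and 7 with spike-in centring. GRAMD1B, which moves plasma membrane cholesterol inwards, was -0.56 (adjusted p = 4.2e-09), with probe sets at -0.56 to -0.49. TMEM97, which binds NPC1, was 0.46 (adjusted p = 4.8e-08), with probe sets at 0.08 to 0.57. Of 8 tested LXR partners and targets and bile acid genes (15 listed, 13 with a probe set), none rose and 2 fell, or 0 and 7 with spike-in centring. AMACR was -0.44 (adjusted p = 0.0011) with a second probe set at 0.15, and NR1H3, the gene of LXR alpha, was -0.34 (adjusted p = 0.0016) on its single probe set.

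The insulin comparison also carried a difference in the actin probe sets that read RNA integrity. The 3 prime minus 5 prime signal of actin was 3.19 ± 0.08 in insulin and 3.02 ± 0.06 in medium (SD, n = 3 each; difference 0.17, exact two-sided p = 0.1, the smallest possible), and that of GAPDH differed by 0.00 (exact p = 0.8). The part of this in the insulin counts was not tested. The count of 5 genes higher in insulin than in medium was 3 without insulin replicate 1, 2 without insulin replicate 3, 2 without medium replicate 2 and 3 without medium replicate 3, and 4 without insulin replicate 2 or medium replicate 1.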

How the data were processed

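Biotin-labelled cRNA was hybridized to 9 3 prime expression arrays, per the labels' protocols. The authors deposited log2 values per probe set (range 2.02 to 14.3); how the authors normalized them was not given in the sources used here. No scanner files were used. Of 49395 probe sets, 44988 name 1 gene, 1832 several, 102 are controls and 2473 have no gene; symbols were updated by Entrez ID for 44961. The dimmest 40% of probe sets (mean under 4.74) were left out, and each gene took its brightest single-gene probe set. All 9 arrays entered 1 model in limma 3.58.1 (R 4.3.3) with an intensity trend and 6 residual degrees of freedom, and p-values were adjusted by Benjamini-Hochberg over 12239 genes. The procedure was tested on simulated data. Depth does not apply to arrays; their number limits precision. Single values used exact permutation tests over arrays. Members and lists were chosen with earlier results of these data known, so no list is independent evidence. Values on every array are given for members called in at least 2 comparisons. They are also given for SREBF2 and MYLIP, in part for INSIG2 and HSD17B7, and for probe sets of ABCG1, though these genes were called in fewer. Of the other lists at most 3 called genes, by lowest adjusted p in biomineralized insulin against medium, are named. Alternatives covered scaling, probe set choice, filters, array weights, the replicate number and each array left out. Replicate numbers were not taken to pair arrays, since same-numbered deviations correlated at -0.23 to 0.17.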

Additional observations from a re-analysis of the deposited data

How the results depend on the processing

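Of 29 tested sterol genes, 5 rose and 1 fell in insulin against medium. The number higher was 1 without the intensity trend, 0 with only _at probe sets (3 genes left), 3 with only the 6 arrays compared, 0 with spike-in centring, 3 without _x_at and _s_at probe sets (an alternative chosen after seeing the data) and 2 at an adjusted p under 0.01, and 2 to 4 with 1 array left out. The number lower was 0 in each of these, 0 to 0 with 1 array left out, and 0 with the mean of probe sets, median centring, no brightness filter, the most variable probe set and the replicate block. In biomineralized insulin against medium 18 rose and 3 fell: 1 and 1 with only _at probe sets, 5 and 15 with spike-in centring, 5 lower with the most variable probe set (for ABCG1 one that is under the brightness limit in biomineralized insulin). In biomineralized insulin against insulin 9 rose and 4 fell: 14 higher with the mean of probe sets, 1 and 1 with only _at probe sets, 3 and 20 with spike-in centring. With the replicate block the counts were 4 and 0, 17 and 3, and 10 and 4 in these comparisons. Spike-in centring adds 1 shift to every gene of an array, so its p-values are not independent between genes. With prior degrees of freedom taken as infinite they are also too small in the comparisons with biomineralized insulin. Its calls are given as a description, and reversals came under it. Against medium they were SREBF2 -0.18, SCAP -0.11, INSIG2 -0.12, MBTPS1 -0.28, ACAT2 -0.27, MVK -0.16, PMVK -0.39, MVD -0.21, FDPS -0.34, LSS -0.12, EBP -0.23, SC5D -0.28, STARD4 -0.29, NPC2 -0.28 and MYLIP -0.11. Against insulin they were SREBF2 -0.29, SCAP -0.21, INSIG2 -0.24, MBTPS1 -0.33, ACAT2 -0.30, MVK -0.37, MVD -0.25, LSS -0.09, TM7SF2 -0.36, EBP -0.29, SC5D -0.27, STARD4 -0.35, NPC2 -0.31 and MYLIP -0.36. Of 578 single-gene results under alternatives per comparison, 523 kept their side of the threshold, with no called result reversed, in insulin against medium. The number was 507 in biomineralized insulin against medium and 528 in biomineralized insulin against insulin. Among these, 16, 5 and 27 changed sign while not called, in the same order. Signals near the brightness limit, as in ABCG1, limit what the array can show.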
